A study of Homo sapiens with 24 samples.

Results

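Laminins and integrins were measured as the 36 genes whose rows in the deposited count table map to the symbols of laminin chains and integrin subunits, out of 61551 genes used. The list held 11 laminin chains (5 alpha, 4 beta and 2 gamma chains) and 25 integrin subunits (17 alpha and 8 beta subunits). All 36 had a count in at least 1 library. ITGB6 stayed at no more than 3 counts in every library.

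Laminins are secreted trimers of an alpha, a beta and a gamma chain, and they form the sheet-like core of basement membranes. Integrins are paired alpha and beta receptors in the cell membrane that bind laminin, fibronectin, vitronectin or tenascin outside the cell and link it to the actin skeleton inside. Pluripotent stem cells are commonly grown on laminin or vitronectin, which they hold through integrins, and neural crest cells use integrins for fibronectin and tenascin when they leave the neural tube.

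The cells were H9 (WA09), an established human embryonic stem cell (hESC) line. HAR123 is a human accelerated region, a short conserved stretch of DNA with many changes in the human lineage, and it was present in its human form (hHAR123, the unedited control), deleted from both alleles by CRISPR-Cas9 (HAR123-KO), or replaced by the chimpanzee (cHAR123) or mouse (mHAR123) sequence. RNA of each genotype was sequenced at 2 stages, as hESCs (day 0) and as neuroectoderm (day 5), in 3 libraries per genotype and stage, 24 in all. All groups share the H9 background. The methods name a pair of independent clones per genotype, so that among the 3 libraries of a group some share a clone, and which library came from which is not given in the sources used here. The n of 3 counts libraries, and p-values measure the spread between them, which may be technical. In neuroectoderm the labels of cHAR123 and mHAR123 are uncertain. Per-gene means in the supplementary gene lists named for cHAR123 matched the columns labelled mHAR123, and the reverse, whereas the hESC lists matched their labels. Neuroectoderm values below follow the column labels, and which label is right cannot be told apart.

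Total counts were 23334732 to 35198684 per library in hESCs and 21022748 to 25978892 in neuroectoderm, so that 3 counts stood for about 0.0852 to 0.143 CPM (counts scaled to the library total). The 6 neuroectoderm markers OTX2, PAX6, HES5, SOX1, SIX3 and LHX2 summed to between 1151 and 1282 CPM in hHAR123, cHAR123 and mHAR123 neuroectoderm and to 529 to 540 CPM in HAR123-KO neuroectoderm. The 7 neural crest markers FOXD3, PAX3, PAX7, SNAI2, SOX10, TFAP2A and TFAP2B summed to 111 to 118 CPM in hHAR123, 262 to 274 in cHAR123, 297 to 300.3 in mHAR123 and 1540 to 1555 in HAR123-KO neuroectoderm. In bulk RNA, fewer cells of a type and less RNA per cell cannot be told apart. Genes were called at an adjusted p under 0.01 and a log2 fold change of more than 1 in size, with edgeR's quasi-likelihood test and Benjamini-Hochberg adjustment over all genes tested.

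In unedited hESCs, the most abundant members per length were ITGB5, ITGA6, LAMC1, ITGB1 and LAMA5. Levels between genes are given here as RPKM, CPM divided by the exon length in kilobases. That length is the deposited one, over all annotated exons of a gene, and the order between genes depends on it. ITGB5, the partner of ITGAV in a vitronectin receptor, stood at 51.1 ± 0.48 RPKM (SD, n = 3). ITGA6, the alpha subunit of laminin receptors, was at 27.5 ± 0.573 RPKM and ITGB1, the beta subunit shared by most of these receptors, at 20.5 ± 0.925 RPKM. Among the laminins, the gamma chain LAMC1 was at 27.4 ± 0.0973 RPKM, the alpha chain LAMA5 at 17.9 ± 0.207, the beta chain LAMB2 at 12.9 ± 0.305 and the alpha chain LAMA1 at 8.46 ± 0.121. These chains were thus present in all 3 classes that a laminin trimer needs.

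In unedited neuroectoderm the order per length was different. LAMA1 led at 24.8 ± 0.409 RPKM, followed by LAMB2 at 22.0 ± 0.675 and LAMA5 at 18.8 ± 0.852. ITGA6 (17.98 ± 0.515 RPKM) and LAMC1 (17.9 ± 0.213) lay within 1 SD of each other, and ITGB1 (15.8 ± 0.41) and ITGA5 (15.4 ± 0.441), the fibronectin receptor subunit, differed by about 1 SD. ITGB5 had dropped to 5.37 ± 0.211 RPKM. Without division by length LAMA1 also led, at 393.4 CPM. ITGB1 (230.5 CPM, 14561 exon bases) then stood above LAMB2 (151.2 CPM, 6865 bases), LAMC1 (151.4 CPM) and ITGA6 (120.1 CPM). At both stages 24 of the 36 members averaged at least 1 CPM in hHAR123 cells. The members of leukocyte integrins, ITGAL, ITGAM, ITGAX, ITGB2 and ITGB7, were under 1 CPM in every group, and 5 blood cell markers summed to no more than 3.33 CPM in any library. ITGAE, the leukocyte alpha subunit that pairs with ITGB7, was by contrast read at 8.64 to 13.2 CPM in every library, and 6.47% of its exon bases overlap HASPIN on the opposite strand. ITGA2B, known from platelets, was nevertheless read at 5.18 to 11 CPM in every library.

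**Figure D1:**
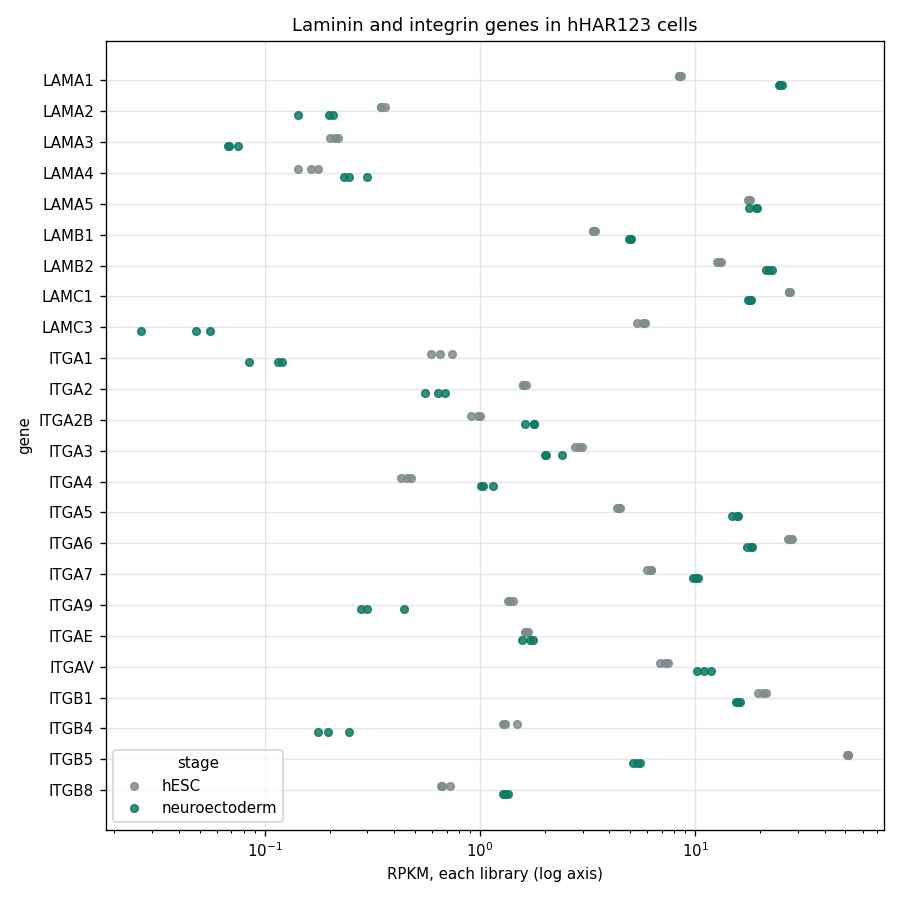
Per-library RPKM (log axis) of the 24 laminin and integrin genes with a mean of at least 1 CPM over the 6 hHAR123 libraries, hESC in grey and neuroectoderm in green, 3 points per stage. LAMC3 and ITGB5 sit far lower in neuroectoderm, and LAMA1 and ITGA5 higher.

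The first comparison asked how the repertoire changed as unedited hESCs became neuroectoderm. Of 30 members tested (6 were below the filter on low counts), 3 rose and 11 fell. Over all genes tested in this comparison, 24.6% were called higher and 21.2% lower. The median log2 fold change was -0.61 over the members tested and 0.05 over all genes. Scaling by total counts in place of TMM moved the median of all genes by 0.29 on the log2 scale, which turned the direction of LAMA5 (-0.22 with TMM, 0.08 with totals) and ITGAE (-0.26 and 0.04), neither of them called, and gave 4 members higher and 8 lower.

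Among the laminin alpha chains, LAMA1, the alpha chain of laminin-111 of early embryos, rose. Its levels were 133, 136 and 134 CPM in hESCs and 392.1, 388 and 400.4 CPM in neuroectoderm, a log2 fold change of 1.26 ± 0.03 (SE, adjusted p = 4.9e-31). The groups did not overlap. Of LAMA1's exon bases, 10.35% overlap a gene on the opposite strand, and whether counting used the strand is not stated. LAMA2, the alpha chain of muscle and nerve laminins, went from 9.19, 9.61 and 9.12 CPM to 3.76, 5.25 and 5.51 CPM, a fall of 1.22 ± 0.11 on the log2 scale as fitted (-1.22, adjusted p = 4.27e-13), and of -0.93, inside the fold threshold, with total-count scaling. LAMA3, the alpha chain of epithelial laminin, went from 2.9, 3.07 and 3.18 CPM to 1.09, 0.992 and 0.982 CPM (-1.87 ± 0.19, adjusted p = 1.52e-11). All hESC libraries were above all neuroectoderm libraries for both.

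The gamma chain LAMC3 showed the steepest fall of the members tested in hHAR123. It had 1630, 1730 and 1689 counts in the hESC libraries and 5, 12 and 10 in neuroectoderm, which is 51.5, 52.1 and 48 CPM against 0.238, 0.496 and 0.427 CPM. The log2 fold change was -7.28 ± 0.12 (adjusted p = 2.98e-37). Its relative LAMC1 passed the p threshold with a smaller change (-0.91). The epithelial beta chain LAMB3, at 0.557 ± 0.0838 CPM in hESCs and 0.326 ± 0.135 in neuroectoderm, was called at -1.08 ± 0.38 (adjusted p = 0.00841) and lost the call in most alternatives, with an adjusted p of 0.0809 by DESeq2 and of 0.0128 to 0.0607 without hESC replicate 1, 2 or 3 or neuroectoderm replicate 2 or 3. LAMB4 was below the filter.

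Of the integrin alpha subunits, ITGA5 and ITGA8 rose. ITGA5 stood at 32.8, 33.2 and 32.1 CPM in hESCs and at 110.1, 116 and 115 CPM in neuroectoderm (1.51 ± 0.04, adjusted p = 3.57e-29). ITGA8, which binds nephronectin with ITGB1, had 0 counts in all 3 hESC libraries and 34, 43 and 37 counts in neuroectoderm, so its mean of 1.66 CPM was at least 18.4-fold higher than the level of 3 counts per library. Both genes were higher in every neuroectoderm library than in any hESC library.

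The collagen receptor subunits ITGA1 and ITGA2 fell together with the tenascin receptor subunit ITGA9. ITGA1 went from 11, 12.1 and 13.7 CPM to 2.14, 1.57 and 2.22 CPM (-2.93 ± 0.13, adjusted p = 4.99e-23). ITGA2 went from 12.5, 12.5 and 12.9 CPM to 5.04, 5.41 and 4.4 CPM (-1.64 ± 0.09, adjusted p = 8.01e-19). For ITGA9 the values were 11.4, 11.2 and 11.7 CPM in hESCs and 3.66, 2.48 and 2.31 CPM in neuroectoderm (-2.33 ± 0.12, adjusted p = 8.74e-21). Stages did not overlap for any of these 3 genes, and 9.23% of ITGA9's exon bases overlap its antisense gene. The scarce ITGA11, another collagen receptor subunit, and ITGAM, a leukocyte subunit, were also called (-1.82 and -1.49) from no more than 23 counts in a library. ITGA11 lost its call by DESeq2 (adjusted p = 0.0153) and without neuroectoderm replicate 3 (-1.25, adjusted p = 0.0123). ITGAM lost its call by DESeq2 (adjusted p = 0.0533), with total-count scaling (adjusted p = 0.0173) and without neuroectoderm replicate 1 (-1.1, adjusted p = 0.0422). Without hESC replicate 1, 2 or 3 the members called were 12 in place of 14. LAMB3 lost its call there, and a further member fell below the filter on low counts.

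Of the beta subunits, ITGB5 and ITGB4 fell. ITGB5 went from 333, 336 and 329.8 CPM to 33.5, 36.3 and 35.1 CPM, an 11.6-fold fall (-3.54 ± 0.04, adjusted p = 4.91e-43). ITGB4, which pairs with ITGA6 to hold epithelial cells to laminin, went from 10.1, 8.67 and 8.86 CPM to 1.33, 1.2 and 1.67 CPM (-3.0 ± 0.14, adjusted p = 7.25e-22). The lowest hESC library exceeded the highest neuroectoderm library several times over for both. ITGB1 changed less (-0.67) and ITGB8, a subunit that activates TGF-beta with ITGAV, went up by 0.65, both past the p threshold and inside the fold threshold, as were ITGAV (0.32), ITGA4 (0.92), ITGA6 (-0.91) and ITGA7 (0.41).

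The same comparison was made within each edited genotype. In HAR123-KO cells 5 members rose and 12 fell of 30 tested, beside 41.1% of all genes called in either direction. In cHAR123 cells 4 rose and 11 fell of 29 tested (42.7% of all genes called), and in mHAR123 cells likewise 4 rose and 11 fell of 29 (41.9%). If the neuroectoderm columns are crossed, stage comparisons within cHAR123 and within mHAR123, here and below, set neuroectoderm of either genotype against hESCs of the other. LAMA1 changed by 1.25 to 1.31 on the log2 scale in all 4 genotypes, ITGA5 by 1.38 to 1.53, ITGA1 by -3.02 to -2.93 and ITGB5 by -3.83 to -3.36. ITGA8 was again at no more than 3 counts in every hESC library of the edited genotypes, and its mean in neuroectoderm was at least 378-fold higher than that floor in HAR123-KO, at least 61.6-fold in cHAR123 and at least 65.2-fold in mHAR123.

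Several members followed another course in HAR123-KO cells. LAMA4, an alpha chain of vessel and nerve laminins, changed by 2.08 ± 0.10 in HAR123-KO (adjusted p = 1.02e-27) and by 0.41 to 0.94 in the other genotypes, where it was not called. ITGA4, a fibronectin and VCAM1 receptor subunit, was called higher in all 3 edited genotypes, by 3.43 ± 0.07 in HAR123-KO, 1.51 ± 0.09 in cHAR123 and 1.77 ± 0.09 in mHAR123, and stood at 0.92 in hHAR123. ITGA9, called lower in the other 3 genotypes, was at 0.35 in HAR123-KO. ITGA3 was not called in hHAR123 and was called lower in all 3 edited genotypes. Leaving out 1 library gave it -2.18 to -2.07 in HAR123-KO, -1.18 to -1.03 in cHAR123 and -1.1 to -1.0 in mHAR123. With total-count scaling ITGA3 lost the call in cHAR123 (-0.89) and in mHAR123 (-0.87). LAMA5 (-1.23), ITGA6 (-1.39) and ITGB1 (-1.20) were called lower in HAR123-KO and not called in the other genotypes, and their change in hHAR123 was -0.22, -0.91 and -0.67, past the p threshold. LAMB3 was called in cHAR123 and mHAR123 and lost the call by DESeq2 in both (adjusted p = 0.0435 and 0.0333), without cHAR123 neuroectoderm replicate 1 or 3 (adjusted p = 0.0219 and 0.0134), and without mHAR123 hESC replicate 2 or neuroectoderm replicate 1 (adjusted p = 0.0147 and 0.0327).

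**Figure D2:**
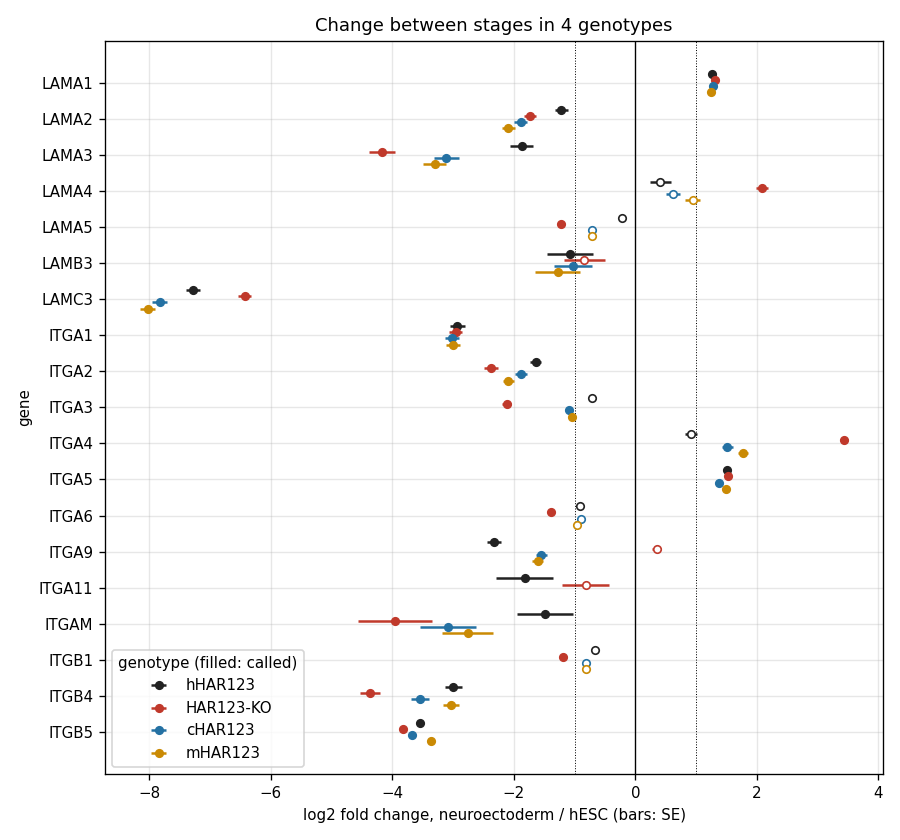
Log2 fold change of neuroectoderm over hESC with its SE for members called in at least 1 genotype (ITGA8, at the floor in hESCs, is left out). Filled points were called, and dotted lines mark the fold threshold. LAMA1, ITGA1 and ITGA5 lie together in the 4 genotypes, and LAMA4, ITGA4 and ITGA9 lie to the right in HAR123-KO.

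The difference between these courses was tested directly as the HAR123-KO effect in neuroectoderm against its effect in hESCs, over 12 libraries. Of 30 members tested, 3 were called higher and 5 lower, beside 7.87% of all genes called in either direction. The 3 were ITGA9 (2.65 ± 0.13, adjusted p = 1.15e-22), ITGA4 (2.48 ± 0.13, adjusted p = 1.5e-22) and LAMA4 (1.65 ± 0.19, adjusted p = 3.33e-10). The 5 were LAMA3 (-2.33 ± 0.33), ITGA3 (-1.44 ± 0.10), ITGB4 (-1.39 ± 0.29), ITGA7 (-1.11 ± 0.06) and LAMA5 (-1.04 ± 0.04). ITGA3, ITGA7 and ITGB4 encode subunits of laminin receptors, and LAMA3 and LAMA5 laminin alpha chains. ITGA6 and ITGB1 passed the p threshold at -0.51 and -0.56. ITGA8 was not called in this test. It had no more than 3 counts in every hESC library of both genotypes, too few to measure an effect in hESCs.

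In hESCs few differences between genotypes passed the fold threshold, in the members as in all genes. None of 30 members tested was called in HAR123-KO against hHAR123 or in cHAR123 against hHAR123, by edgeR or by DESeq2, and 16 and 22 of them had an unadjusted p under 0.05. The share of all genes at an unadjusted p under 0.05 is not given here or below. Such counts therefore do not set the listed genes apart from all genes. In mHAR123 against hHAR123 a single member of 30 was called. Over all genes, 1.18%, 0.850% and 1.23% were called in HAR123-KO, cHAR123 and mHAR123. The member was ITGAM, with 12, 13 and 16 counts in hHAR123 and 35, 20 and 31 in mHAR123 (1.14 ± 0.30, adjusted p = 0.00259). It was not called by DESeq2 (adjusted p = 0.0482), in a fit of all 24 libraries (adjusted p = 0.0101), or without hHAR123 replicate 1 or 2 or mHAR123 replicate 1 or 3 (adjusted p = 0.011 to 0.0194).

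Small differences in hESCs leaned one way. Below the fold threshold, 15 members were past the p threshold and higher in HAR123-KO and 0 lower. The counts were 14 higher and 1 lower in cHAR123 and 20 higher and 1 lower in mHAR123. Of all genes, 6.10% were higher and 5.07% lower by the same rule in HAR123-KO, 7.10% and 8.37% in cHAR123, and 7.99% and 9.97% in mHAR123. The median log2 fold change of the members was 0.19, 0.22 and 0.24 in the 3 comparisons, and that of all genes 0.00 to 0.01. The median of its absolute size was 0.22, 0.23 and 0.24 over the members and 0.11, 0.14 and 0.14 over all genes. The lean was shared by the 46 other cell-matrix adhesion genes compared with them, of which 25, 22 and 23 were higher and 1, 0 and 1 lower by that rule, with medians of 0.17, 0.15 and 0.15. LAMA5 may serve as an example, with 258, 252 and 255 CPM in hHAR123, 334, 327 and 337 in HAR123-KO, 363, 387 and 381 in cHAR123, and 413, 404 and 383 in mHAR123. Its log2 fold changes were 0.36, 0.53 and 0.61, and all 9 edited libraries were above the 3 unedited ones. The 3 comparisons use the same 3 hHAR123 libraries and are not independent of one another.

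In neuroectoderm, members were called in both directions in HAR123-KO cells. Of 28 members tested in HAR123-KO against hHAR123, 4 were called higher (LAMA4, ITGA4, ITGA8 and ITGA9) and 3 lower (LAMA3, ITGA3 and ITGB4), and 21 were not called. Over all genes tested, 4.92% were called higher and 4.52% lower. The median of the absolute log2 fold change was 0.59 over the members and 0.27 over all genes. The 8 members below the filter were LAMB4, ITGA11, ITGAL, ITGAM, ITGAX, ITGB3, ITGB6 and ITGB7.

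**Figure D3:**
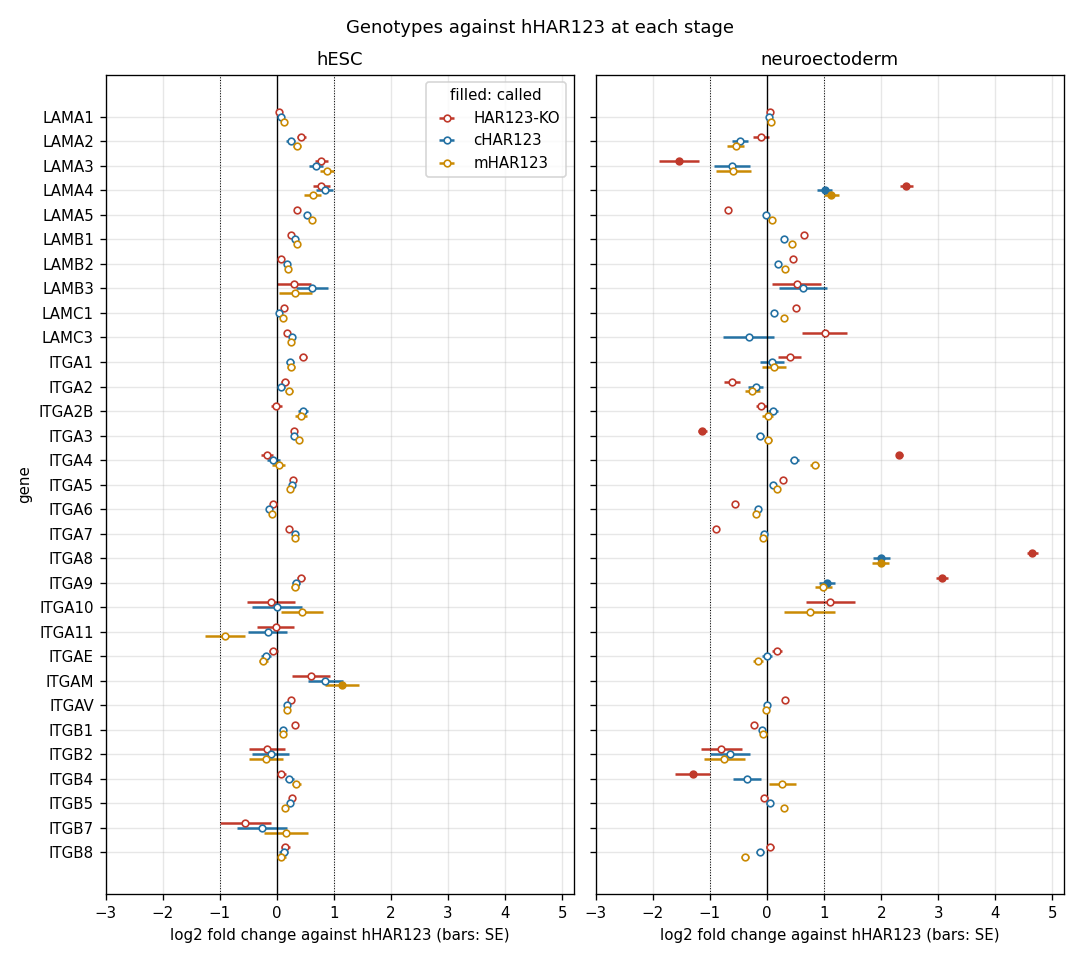
Log2 fold change against hHAR123 with its SE for each member tested, in hESCs (left) and neuroectoderm (right), for the 3 edited genotypes. Filled points were called, and dotted lines mark the fold threshold. In hESCs nearly all points lie within 1 of zero, and in neuroectoderm LAMA4, ITGA4, ITGA8 and ITGA9 stand to the right in HAR123-KO.

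Promoters are shown for 3 genes called higher in HAR123-KO neuroectoderm and, beside them, for 1 called lower (LAMA3). RefSeq promoters (GRCh38.p14, 250 bases before to 50 after a start) were matched by symbol for 26 of the 36 members, and LAMA4, ITGA4, ITGA8 and LAMA3 were among them. ITGA3, ITGA9 and ITGB4 had no entry. Capitals mark matches, on either strand and chosen after the values were seen, to the GC box GGGCGG, the TATA box TATAAA, the E-box CANNTG and the AP-2 motif GCCNNNGGC. Matches may overlap. The start used for LAMA3 lies inside the gene (chromosome 18, 23689453 to 23956222), not at its first base. The starts used for LAMA4 and ITGA4 also lie inside their genes, though nearer to the first base. Only the start used for ITGA8 is the first base of its gene.
LAMA4, chr6:112254518-112254817, minus strand: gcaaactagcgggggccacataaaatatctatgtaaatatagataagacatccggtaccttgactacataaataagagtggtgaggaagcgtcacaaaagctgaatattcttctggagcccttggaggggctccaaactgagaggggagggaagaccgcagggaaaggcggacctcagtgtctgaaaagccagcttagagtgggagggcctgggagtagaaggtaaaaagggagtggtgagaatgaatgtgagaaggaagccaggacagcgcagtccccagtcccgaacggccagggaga
ITGA4, chr2:181457136-181457435, plus strand: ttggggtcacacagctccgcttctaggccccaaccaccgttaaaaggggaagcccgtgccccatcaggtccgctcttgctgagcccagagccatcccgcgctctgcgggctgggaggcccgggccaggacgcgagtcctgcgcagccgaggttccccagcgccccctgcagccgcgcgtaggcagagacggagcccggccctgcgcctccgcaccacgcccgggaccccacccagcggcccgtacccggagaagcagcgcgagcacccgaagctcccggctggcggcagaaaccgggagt
ITGA8, chr10:15719873-15720172, minus strand: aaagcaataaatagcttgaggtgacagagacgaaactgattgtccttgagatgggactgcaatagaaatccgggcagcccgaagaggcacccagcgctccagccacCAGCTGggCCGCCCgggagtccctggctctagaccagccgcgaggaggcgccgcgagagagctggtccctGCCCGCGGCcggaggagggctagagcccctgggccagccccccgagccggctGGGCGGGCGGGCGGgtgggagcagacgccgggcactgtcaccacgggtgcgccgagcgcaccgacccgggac
LAMA3, chr18:23872770-23873069, plus strand: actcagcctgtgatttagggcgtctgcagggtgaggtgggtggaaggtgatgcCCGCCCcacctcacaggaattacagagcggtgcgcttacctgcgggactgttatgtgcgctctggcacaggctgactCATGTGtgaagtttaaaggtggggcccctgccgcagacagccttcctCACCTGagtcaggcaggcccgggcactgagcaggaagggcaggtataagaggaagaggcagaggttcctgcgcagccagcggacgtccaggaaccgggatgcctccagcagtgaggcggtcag
The ITGA8 promoter held 4 GC boxes, 1 E-box and 1 AP-2 motif, and the LAMA3 promoter 1 GC box and 2 E-boxes. The LAMA4 and ITGA4 windows held none of these letters. Of all 35116 promoters in the table, 45% held the GC box, 11.5% the TATA box, 68.7% the E-box and 23.2% the AP-2 motif. GC content was 51.3% for LAMA4, 72.3% for ITGA4, 69.3% for ITGA8 and 61.7% for LAMA3. LAMA4, ITGA4 and ITGA8 thus shared none of the 4 motifs in these windows.

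ITGA8 (chromosome 10, 15513954 to 15719922, minus strand, GRCh38) changed most. It stood at 1.62, 1.78 and 1.58 CPM in hHAR123 neuroectoderm and at 42.7, 39.1 and 39.7 CPM in HAR123-KO, a 25.2-fold increase (log2 4.65 ± 0.10, adjusted p = 9.91e-40). The groups were far apart. Per length it went from 0.227 ± 0.0143 to 5.53 ± 0.266 RPKM, close to the level of ITGB5 in the same cells (5.03 ± 0.389 RPKM).

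ITGA9 (chromosome 3, 37452115 to 37823507) stood at 3.66, 2.48 and 2.31 CPM in hHAR123 and at 23.8, 21.8 and 22.5 CPM in HAR123-KO (3.07 ± 0.11, adjusted p = 3.71e-30). ITGA4 (chromosome 2, 181457202 to 181538940) stood at 12.2, 10.7 and 11 CPM in hHAR123 and at 53.7, 55.3 and 54.8 CPM in HAR123-KO (2.32 ± 0.06, adjusted p = 3.01e-35). All HAR123-KO libraries were several times above all hHAR123 libraries for both genes. Of ITGA4's exon bases, 26.4% overlap CERKL on the opposite strand. ITGA4, ITGA8 and ITGA9 each pair with ITGB1, which stood at 236, 225 and 230.4 CPM in hHAR123 and at 183, 188 and 196 CPM in HAR123-KO (-0.23, past the p threshold only). The alpha subunit of laminin receptors ITGA6 was also past it, at -0.56.

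LAMA4 (chromosome 6, 112107931 to 112254939) was the laminin chain that rose. Its levels were 2.81, 3.6 and 2.95 CPM in hHAR123 and 17.1, 16.2 and 15.8 CPM in HAR123-KO, without overlap (2.44 ± 0.11, adjusted p = 8.85e-26). LAMB1, LAMB2 and LAMC1, the beta and gamma chains with which it can assemble, were past the p threshold at 0.65, 0.45 and 0.51. LAMA5 (-0.68) was lower and LAMA1, at 393 ± 6.48 CPM in hHAR123 and 396 ± 6.75 CPM in HAR123-KO, did not pass.

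The 3 members that fell are known from epithelial adhesion to laminin. ITGA3 went from 19.6, 19.9 and 23.6 CPM to 9.61, 8.65 and 9.56 CPM (-1.13 ± 0.08, adjusted p = 7.15e-17). LAMA3 went from 23, 24 and 23 counts to 9, 7 and 8 counts (-1.54 ± 0.35, adjusted p = 0.000174) and ITGB4 from 28, 29 and 39 counts to 13, 7 and 19 counts (-1.30 ± 0.31, adjusted p = 0.000308). Groups did not overlap in CPM for any of the 3, but LAMA3 and ITGB4 rest on few counts and were not called by DESeq2 (adjusted p = 0.0102 and 0.0133). The summed neural crest markers differed between the same groups (111 to 118 against 1540 to 1555 CPM). So did the neuroectoderm markers (1210 to 1225 against 529 to 540 CPM) and the 4 endothelial markers PECAM1, CDH5, KDR and TEK (10.04 to 10.6 against 22.6 to 25.8 CPM). Of the endothelial sum, PECAM1 and CDH5 were at 0.0854 and 0.192 CPM in hHAR123 and at 0.296 and 0.193 CPM in HAR123-KO, and KDR went from 7.89 to 19.3 CPM. The 6 surface ectoderm markers TP63, KRT5, KRT14, GATA3, DLX5 and GRHL3 summed to 5.08 to 7.56 CPM in hHAR123 and to 9.78 to 10.01 CPM in HAR123-KO. Of these 6, 4 in hHAR123 and 2 in HAR123-KO were at no more than 3 counts in every library. The part of these marker genes in the changes was not tested.

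**Figure D4:**
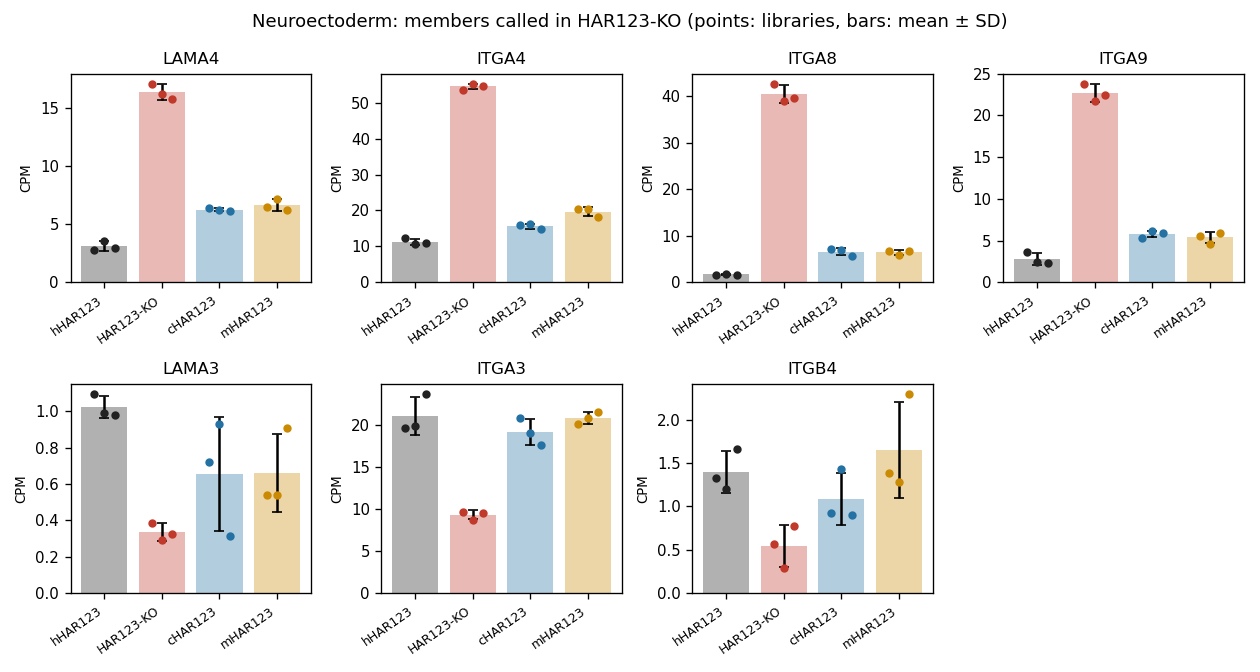
CPM in neuroectoderm of the 7 members called in HAR123-KO against hHAR123. Points are libraries, bars the mean of 3 with its SD, and each panel has its own axis from 0. For LAMA4, ITGA4, ITGA8 and ITGA9 the cHAR123 and mHAR123 libraries lie between those of hHAR123 and HAR123-KO.

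The libraries labelled cHAR123 and mHAR123 shared part of this change. In cHAR123 against hHAR123, 3 of 27 members tested were called, all higher, beside 0.978% of all genes. In mHAR123, 2 of 26 were called, both higher, beside 1.03%. ITGA8 stood at 7.24, 6.89 and 5.65 CPM in cHAR123 and at 6.7, 5.88 and 6.66 CPM in mHAR123 (2.0 ± 0.15 and 1.99 ± 0.15, adjusted p = 5.15e-14 and 1.74e-13). These values lay above all hHAR123 libraries and below all HAR123-KO libraries.

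LAMA4 stood at 6.36, 6.25 and 6.14 CPM in cHAR123 and 6.5, 7.2 and 6.23 CPM in mHAR123 (1.01 ± 0.13 and 1.13 ± 0.13). ITGA9 stood at 5.32, 6.08 and 5.92 CPM in cHAR123 and 5.58, 4.64 and 5.93 CPM in mHAR123 (1.06 ± 0.14, called, and 0.99, just inside the fold threshold). ITGA4 passed the p threshold alone, at 0.48 in cHAR123 and 0.84 in mHAR123. In cHAR123 the calls of LAMA4 and ITGA9 are near the fold threshold. Without hHAR123 neuroectoderm replicate 3 both lost it (0.97 and 0.94), without replicate 1 LAMA4 (0.94) and without replicate 2 ITGA9 (0.98). With total-count scaling LAMA4 was at 1.0 and not called, which left 2 members. LAMA3, ITGA3 and ITGB4 were not called in either, and LAMA3 ranged from 0.314 to 0.93 CPM in cHAR123 and from 0.538 to 0.909 in mHAR123. The summed neural crest markers were at 262 to 274 CPM in cHAR123 and 297 to 300.3 in mHAR123, and the endothelial markers at 12.6 to 14.9 and 15.4 to 17.4 CPM, both between the other genotypes, and their part was not tested.

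Set directly against HAR123-KO, 6 of 27 members tested were called in cHAR123 (1 higher, 5 lower, beside 7.61% of all genes) and 7 of 28 in mHAR123 (2 higher, 5 lower, beside 7.33%). ITGA8 was lower by log2 fold changes of -2.62 and -2.64, ITGA9 by -1.99 and -2.06, ITGA4 by -1.82 and -1.46 and LAMA4 by -1.40 and -1.29. ITGA3 was higher (1.04 and 1.18), and ITGB4 was higher in mHAR123 (1.60) and inside the fold threshold in cHAR123 (0.98). ITGA3 in cHAR123 fell inside it without HAR123-KO replicate 2 (0.98) or cHAR123 replicate 1 (0.97).

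LAMC3 was also called lower in both (-1.30 and -1.53), from 10, 30 and 15 counts in HAR123-KO, 6, 6 and 10 in cHAR123 and 7, 4 and 8 in mHAR123. In CPM its cHAR123 and HAR123-KO libraries overlapped. The LAMC3 calls were lost by DESeq2 (adjusted p = 0.0424 and 0.0515) and without HAR123-KO neuroectoderm replicate 2 (-0.76 and -0.99, adjusted p = 0.206 and 0.109). They were also lost without cHAR123 replicate 1 or 2 (adjusted p = 0.0372 and 0.0316) and without mHAR123 replicate 2 (adjusted p = 0.0229).

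Between mHAR123 and cHAR123 none of 27 members was called by edgeR or DESeq2, with 10 at an unadjusted p under 0.05 and 0.261% of all genes called. The largest member past the p threshold was ITGA4 at 0.35, from 15.9, 16.1 and 14.8 CPM in cHAR123 and 20.4, 20.3 and 18.2 CPM in mHAR123, which did not overlap.

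Seen over all 4 genotypes in neuroectoderm, 11 of the 23 members with a mean of at least 1 CPM had every cHAR123 and mHAR123 library between those of hHAR123 and HAR123-KO. Levels increased from hHAR123 to HAR123-KO in 8 (LAMA4, LAMB1, LAMB2, LAMC1, ITGA4, ITGA5, ITGA8 and ITGA9) and decreased in 3 (ITGA6, ITGA7 and ITGB1). Of all 17571 genes at that level, 5.51% had the first order and 4.75% the second. This order was noticed in the values. LAMC1, for example, was at 151 ± 1.8 CPM in hHAR123, 164 ± 3.03 in cHAR123, 180 ± 2.86 in mHAR123 and 208 ± 4.13 in HAR123-KO. ITGA6 was at 120.1 ± 3.44, 107 ± 3.25, 102 ± 3.33 and 78.4 ± 1.31 CPM in the same order.

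The other genes of cell-matrix adhesion, a list of 46 ligands, matrix proteins and adaptors of focal adhesions, were compared in the same fits. Between stages in hHAR123, 3 of 45 tested were called higher and 20 lower, read against the same share of all genes as above. FBN1, the microfibril protein fibrillin (18.1 ± 1.02 to 379 ± 6.89 CPM, log2 4.10), and the basement membrane linker NID2 (4.76 ± 0.425 to 57.5 ± 0.732 CPM, log2 3.30) rose most. FERMT1, a kindlin that activates integrins (24.6 ± 0.888 to 0.971 ± 0.277 CPM, -4.96), and the integrin ligand SPP1 (8.19 ± 0.428 to 0.39 ± 0.129 CPM, -4.66) fell most. Called adaptors that link integrins to actin, such as TLN1 (-1.19), VCL (-1.24), PXN (-1.29) and ACTN1 (-1.42), fell as well. These calls are near the fold threshold. Total-count scaling moved the median of all genes up by 0.29 in this comparison, and its values for the adaptors are not given.

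In HAR123-KO against hHAR123 neuroectoderm, 4 of 46 adhesion genes were called higher and 5 lower, where 4.92% and 4.52% of all genes were. The basement membrane proteoglycan HSPG2 (266 ± 10.3 to 673 ± 15.9 CPM, log2 1.39) and the actin linker TNS1 (6.26 ± 0.386 to 19.6 ± 0.93 CPM, log2 1.70) rose. TNC, the tenascin that ITGA9 receptors bind (53.8 ± 1.79 to 13.6 ± 1.39 CPM, -1.93), and CCN1, a secreted integrin ligand (19 ± 1.21 to 5.37 ± 0.661 CPM, -1.77), fell. In cHAR123 and in mHAR123 neuroectoderm against hHAR123, none of 44 tested was called by edgeR or DESeq2, with 24 and 26 at an unadjusted p under 0.05. Against HAR123-KO, 4 were called higher and 3 lower in each of cHAR123 (45 tested, 7.61% of all genes called) and mHAR123 (46 tested, 7.33%). In hESCs none of 45 was called in any of the 3 genotypes by either tool, with 36, 30 and 31 at an unadjusted p under 0.05. None of 44 was called between mHAR123 and cHAR123 neuroectoderm by either tool (17 at an unadjusted p under 0.05), and 2 of 46 were called higher and 6 lower in the test of the HAR123-KO effect between stages (7.87% of all genes).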

How the data were processed

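The authors depleted ribosomal RNA, aligned paired reads to GRCh38 with STAR 2.5.2b (named in the submitters' processing notes) and used featureCounts over exons. The deposited table holds unnormalized counts for each Ensembl gene and an exon length. Strand and multi-mapping settings are not given in the sources used here, so overlapping genes are uncertain. A broken entry was left out. Replicate pairs differed by 1.41 to 5.53 chi-square per degree of freedom, so none was a copy.

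Each comparison was fitted on its own libraries in edgeR 4.0.16 (R 4.3.3) with filterByExpr, TMM and the quasi-likelihood F test, Benjamini-Hochberg adjusted over all genes tested. SEs were obtained as the absolute log2 fold change over the square root of F. CPM and RPKM use library totals and the deposited lengths. The fit was tested on simulated data. SEs and SDs include the spread between the libraries of a group, and floors (3 counts per library) cover counting error only. Alternatives were DESeq2 1.42.0, its size factors, no filter, all 24 libraries in one fit, a replicate block, no fold minimum and leaving out each library, and, chosen after seeing the data, total-count scaling.

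Members and lists were chosen with earlier results of these data known. Values per library are given for members called against hHAR123 and for those called between stages in hHAR123 with a mean of at least 1 CPM. Of the adhesion genes, the 2 largest changes each way were named among those called at that level, and TLN1, VCL, PXN, ACTN1 and LAMA5 were chosen after their values were seen. Supplementary gene lists of the study served only to check column labels.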

Additional observations from a re-analysis of the deposited data

Results flagged for a closer look

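The effect of HAR123-KO on 8 members differed between neuroectoderm and hESCs by the direct test over 12 libraries in edgeR, given here as the log2 effect in neuroectoderm minus that in hESCs. It was higher in neuroectoderm for ITGA9 (2.65), ITGA4 (2.48) and LAMA4 (1.65). It was lower for LAMA3 (-2.33), ITGA3 (-1.44), ITGB4 (-1.39), ITGA7 (-1.11) and LAMA5 (-1.04). LAMA3 changed sides, with 0.78 in hESCs and -1.54 in neuroectoderm, and so did LAMA5 (0.36 and -0.68), ITGA3 (0.30 and -1.13) and ITGA7 (0.21 and -0.90). ITGA8, which changed most in HAR123-KO neuroectoderm, was not among the 8. Its counts in hESCs were too few to measure an effect there, so its absence does not show a like effect at both stages. Groups of 3 libraries were too small to look for outlying libraries.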

How the results depend on the processing

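No log2 fold change of a called member changed sign in the alternatives run. Of 1185 values for called members tested under alternatives, 1140 remained called and 45 did not. A called member that fell below the filter in an alternative gave no value and is not in this tally. DESeq2 size factors in the edgeR fit and no filter on low counts moved no count of called members by more than 1.5 times. In mHAR123 against hHAR123 hESCs the 1 call was 0 with DESeq2 and 0 with all 24 libraries in one fit, and the cause was not tested.

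With no fold minimum at an adjusted p under 0.01, the counts were 27 between stages in hHAR123, 24 in cHAR123 and 24 in mHAR123. Against hHAR123 they were 15 (HAR123-KO), 15 (cHAR123) and 22 (mHAR123) in hESCs and 17, 8 and 12 in neuroectoderm. They were 17 for cHAR123 and 18 for mHAR123 against HAR123-KO, 5 for mHAR123 against cHAR123 and 16 for the difference between stages. Shares of all genes past that p are given only for hESCs, above, so the other counts do not set the members apart.

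Leaving out 1 library at a time gave 12 to 14 members between stages in hHAR123, 17 in HAR123-KO, and 14 to 16 in cHAR123 and in mHAR123. In hESCs against hHAR123 it gave 0 for HAR123-KO and cHAR123 and 0 to 1 for mHAR123. In neuroectoderm it gave 7 to 8, 1 to 3 and 2 to 3 for HAR123-KO, cHAR123 and mHAR123 against hHAR123. Against HAR123-KO it gave 4 to 8 for cHAR123 and 6 to 7 for mHAR123, then 0 for mHAR123 against cHAR123 and 8 to 9 for the difference between stages.

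Replicate numbers did not pair the libraries, with correlations of same-numbered deviations from -0.0329 to 0.0335. The replicate block gave 13 members in place of 14 between stages in hHAR123 and the same counts in the other comparisons. Members under about 1 CPM (12 of 36 in hHAR123) limit what these depths can show.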
